A study of Mus musculus with 6 samples.

Results

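The Fc gamma receptor genes of the mouse, Fcgr1 (which encodes CD64), Fcgr3, Fcgr4 and Fcgr2b, and Fcer1g, the gene of the signalling chain that the first 3 share, were followed through single-cell RNA libraries of colon cells. The members were taken by gene symbol, and all 5 were found among the 32285 genes of the files. All 5 passed the expression floor of 20 CPM (UMIs per 1000000 UMIs of the summed cells, a UMI being a unique molecular identifier that counts an RNA molecule once) in every comparison of myeloid-gated cells. The mice had been transplanted with bone marrow alone (BM) or with bone marrow and spleen cells, which gives graft-versus-host disease (GVHD), the attack of donor T cells on the recipient. The 6 libraries, 1 per group, held donor macrophages sorted as CD11b+ CD64+ from GVHD mice and from BM mice, such macrophages from recipients lacking IL-34 (IL34KO) and from wild-type (WT) recipients, and sorted donor T cells from IL34KO and from WT recipients. CD64 protein was thus a sort marker of the 4 macrophage libraries, so that finding Fcgr1 in their cells is part of the design. The labels name no strain, age, number of pooled mice or time after transplant. The sample titles of the IL34KO and WT libraries do not name which transplant their recipients received. Which of the named 5′ and 3′ kits made which library is also unstated, so that mouse, kit and group cannot be told apart.

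Receptors of this family bind the constant part of IgG and let a cell respond to coated particles and immune complexes. The products of Fcgr1, Fcgr3 and Fcgr4 are activating. They pair with the Fc receptor gamma chain, encoded by Fcer1g, whose tyrosine-based motif is phosphorylated by Src kinases and recruits Syk. The product of Fcgr2b is the inhibitory receptor, which carries its own inhibitory motif and recruits the lipid phosphatase SHIP, encoded by Inpp5d. In the gut, CD64 is widely used to tell macrophages from dendritic cells, and interferon gamma is a classical inducer of Fcgr1.

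In mm10 with GENCODE M21, Fcgr1 (ENSMUSG00000015947) lies alone on chromosome 3 (minus strand, 96282909 to 96293969). The other 4 members lie within 275.7 kb of chromosome 1. In order along the chromosome these are Fcgr2b (ENSMUSG00000026656, minus strand, 170958617 to 170976547), Fcgr4 (ENSMUSG00000059089, plus strand, 171018920 to 171029761), Fcgr3 (ENSMUSG00000059498, minus strand, 171051174 to 171064935) and Fcer1g (ENSMUSG00000058715, minus strand, 171229572 to 171234365). The coding sequences of Fcgr3 and Fcgr2b were identical at 86.7% of 782 aligned bases, against 64.35% to 68.61% for the other pairs among the 4 receptor genes. Their longest identical run was 129 bases, and the longest of any other pair was 14 bases. The stretch below, from the exons of the extracellular part, is shown because reads that fall in it cannot be given to 1 of the 2 genes. It covers coding bases 263 to 382 of Fcgr3 (chr1:171054176-171057792, minus strand, across an intron) and coding bases 278 to 397 of Fcgr2b (chr1:170966683-170968081, minus strand, across an intron).
Fcgr3 and Fcgr2b, identical: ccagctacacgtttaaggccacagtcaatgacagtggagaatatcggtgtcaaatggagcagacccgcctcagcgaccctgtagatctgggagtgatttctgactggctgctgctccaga
A neighbouring stretch of 60 bases is shown with its 7 mismatched bases in capitals. It had the fewest identities among windows of this length without a gap, and windows across a gap were not considered. The stretch lies at chr1:171057872-171057931 in Fcgr3 and at chr1:170968161-170968220 in Fcgr2b, both on the minus strand.
Fcgr3: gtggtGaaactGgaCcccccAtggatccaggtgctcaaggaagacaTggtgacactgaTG
Fcgr2b: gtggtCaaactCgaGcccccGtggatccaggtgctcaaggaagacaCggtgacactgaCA
Windows of 31 bases found in both transcripts made up 17.69% of those of the 1347-base Fcgr3 transcript and 6.631% of those of the 3544-base Fcgr2b transcript. They spanned bases 234 to 669 of Fcgr3 and 323 to 758 of Fcgr2b, counted from the 5′ end, and lay 678 and 2786 bases from the 3′ end. Counts of these 2 genes are therefore uncertain to the extent that tags fall there, which was not tested. Fcgr2b is also overlapped by the antisense gene Gm38204 (plus strand, 170973373 to 170977746), which had between 31 and 132 UMIs per library in myeloid-gated cells.

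The promoters are shown because 3 of the 5 share a short purine-rich motif. From the RefSeq table for GRCm38.p6, which had all 5 members, windows from 250 bases before to 50 bases after RefSeq's start site were searched on both strands for 3 motifs. The 7-letter ETS-type motif GAGGAAG was found, on the opposite strand in each case, in Fcgr1, Fcgr3 and Fcgr4. Its middle base lay 53, 4 and 20 bases before the start site. In a second RefSeq window of Fcgr3 it lay 13 bases before the start site. The Fcgr3 windows lie inside the GENCODE span of that gene, whose 5′ end is at 171064935. The motif was present in 13.54% of 27025 promoters. The STAT-type motif TTCNNNGAA (8.466% of promoters) was found in Fcgr1, and the interferon-response-type motif of 10 letters, GAAA and GAAA with any 2 bases between (3.489% of promoters), in Fcgr4. None of these letters was found in the windows of Fcgr2b and Fcer1g. Capitals mark the matches in the windows of Fcgr1 (chr3:96293920-96294219, minus strand), Fcgr3 (chr1:171059354-171059653, minus strand) and Fcgr4 (chr1:171018676-171018975, plus strand).
Fcgr1: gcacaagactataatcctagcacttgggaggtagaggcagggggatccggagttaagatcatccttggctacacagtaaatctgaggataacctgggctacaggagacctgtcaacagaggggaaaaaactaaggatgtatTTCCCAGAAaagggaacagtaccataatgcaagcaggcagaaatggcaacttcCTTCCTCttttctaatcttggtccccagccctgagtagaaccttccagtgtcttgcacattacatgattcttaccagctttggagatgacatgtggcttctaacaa
Fcgr3: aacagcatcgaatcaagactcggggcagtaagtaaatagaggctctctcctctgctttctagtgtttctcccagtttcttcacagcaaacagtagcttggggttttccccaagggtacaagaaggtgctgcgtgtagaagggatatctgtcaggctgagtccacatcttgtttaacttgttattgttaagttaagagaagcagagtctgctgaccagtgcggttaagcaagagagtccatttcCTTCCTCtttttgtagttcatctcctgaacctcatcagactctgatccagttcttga
Fcgr4: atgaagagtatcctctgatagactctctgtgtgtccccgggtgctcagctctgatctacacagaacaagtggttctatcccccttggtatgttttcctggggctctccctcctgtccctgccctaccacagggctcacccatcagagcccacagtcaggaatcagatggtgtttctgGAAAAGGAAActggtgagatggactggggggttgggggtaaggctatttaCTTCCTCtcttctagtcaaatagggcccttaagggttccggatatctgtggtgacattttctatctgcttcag
A match is a description of the letters and not of a bound site.

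The libraries held 4169 to 18360 barcodes and 43660889 to 114425913 UMIs. After filters, 2351 to 12787 cells per library were used. Cells were gated by marker genes that are no members, as myeloid (monocytes and macrophages), neutrophil, dendritic, T and epithelial. Myeloid-gated cells numbered 2125 in GVHD and 1760 in BM, 3504 in the macrophage library labelled IL34KO and 3548 in that of WT recipients, and 4320 in the T-cell library labelled IL34KO and 7547 in that of WT recipients. The T-cell libraries went against their label: 18.0% of cells were T-gated and 54.8% myeloid-gated in that of IL34KO, and 19.2% and 59.0% in that of WT. Their myeloid-gated cells were therefore used as an additional pair of libraries. BM and GVHD shared 2502 barcodes, 2486 of them with more UMIs in GVHD, against 5 to 75 for any other pair of libraries, so the shared barcodes were dropped from BM. Il34 was not lower in either library labelled IL34KO. Counted over every barcode, it had 2.30 CPM (2.02 to 2.61) there against 1.76 CPM (1.51 to 2.03) in WT for the macrophage libraries, and 1.55 CPM (1.30 to 1.84) against 1.18 CPM (0.989 to 1.396) for the T-cell libraries. The labels do not name the deleted part of the gene, and tags outside it check nothing. Brackets hold exact 95% intervals throughout. They cover counting error only, since 1 library per group gives no replicate error and no test.

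Fcgr1 was at 93.9 CPM (91.0 to 96.8) in myeloid-gated cells of GVHD and 99.9 CPM (95.8 to 104) in those of BM. It was at 89.6 CPM (86.8 to 92.4) in the macrophage library labelled IL34KO and 99.1 CPM (96.4 to 102) in that of WT. The myeloid-gated cells of the T-cell libraries, for which the labels name no CD64 sort, had 119 CPM (115 to 123) in the library labelled IL34KO and 116 CPM (113 to 119) in WT. Fcgr1 thus differed little among the macrophage libraries and was higher in both T-cell libraries. Since the macrophage libraries were sorted on its protein, their likeness cannot be read apart from the sort. In rank order the only neighbours whose intervals did not overlap were BM and the T-cell library of WT.

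Fcgr3, the low-affinity activating receptor, was at 549 CPM (542 to 556) in GVHD and 327 CPM (320 to 335) in BM. It was at 520 CPM (513 to 527) in the macrophage library labelled IL34KO and 537 CPM (531 to 543) in that of WT, and at 633 CPM (625 to 642) and 631 CPM (625 to 638) in the T-cell libraries of IL34KO and WT. BM stood apart below the other 5 libraries. GVHD and the WT macrophage library overlapped, as did both T-cell libraries.

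Fcgr4, an activating receptor of intermediate affinity that monocytes, macrophages and neutrophils carry, was at 178 CPM (174 to 182) in GVHD and 148 CPM (143 to 153) in BM. It was at 235 CPM (230 to 240) in the macrophage library labelled IL34KO and 238 CPM (234 to 242) in that of WT, and at 279 CPM (273 to 285) and 305 CPM (300.3 to 309.6) in the T-cell libraries of IL34KO and WT. Its order ran upwards from BM through GVHD to the macrophage libraries of the IL-34 experiment and then the T-cell libraries. Only the neighbours IL34KO and WT among the macrophage libraries overlapped.

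Fcgr2b, the inhibitory receptor, was at 498 CPM (491 to 505) in GVHD and 415 CPM (407 to 424) in BM. It was at 426 CPM (420.2 to 432) and 437 CPM (431 to 443) in the macrophage libraries of IL34KO and WT, and at 499 CPM (492 to 507) and 466 CPM (461 to 472) in the T-cell libraries of IL34KO and WT. GVHD and the T-cell library labelled IL34KO were highest and overlapped. The macrophage library labelled IL34KO overlapped its neighbours in the order, BM and WT.

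Fcer1g, the common gamma chain, was at 1232 CPM (1221 to 1243) in GVHD and 1375 CPM (1359 to 1390) in BM. It was at 2139 CPM (2125 to 2153) and 1945 CPM (1933 to 1957) in the macrophage libraries of IL34KO and WT, and at 1807 CPM (1793 to 1822) and 2009 CPM (1997 to 2021) in the T-cell libraries of IL34KO and WT. GVHD and BM were below all 4 libraries of the IL-34 experiment, and no intervals overlapped. T-gated cells held 0 to 2.80 CPM of Fcgr1, 0 to 13.6 CPM of Fcgr3, 1.95 to 7.99 CPM of Fcgr4, 5.84 to 16.1 CPM of Fcgr2b and 25.3 to 132 CPM of Fcer1g. Whether these UMIs are stray or come from the T-gated cells themselves was not tested.

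**Figure D1:**
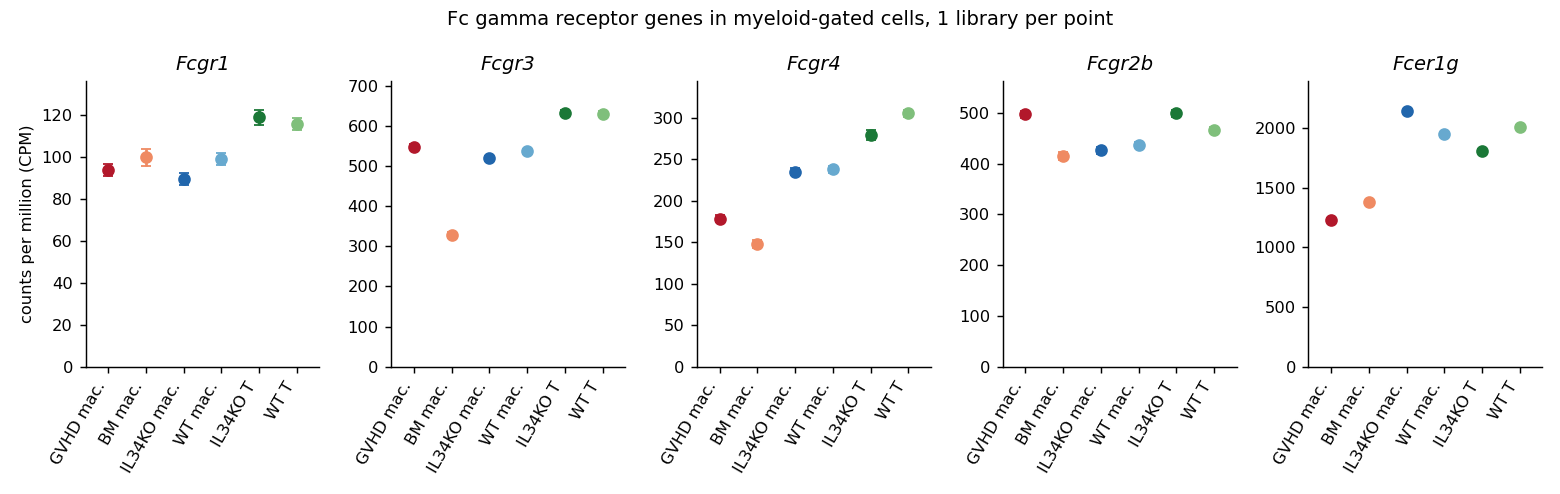
Level of each member in myeloid-gated cells in CPM (linear axes from 0), 1 point per library with its exact 95% counting interval; mac. marks macrophage libraries and T marks T-cell libraries. Fcgr3 was at 327 CPM in BM and between 520 and 633 CPM in the other 5 libraries, while Fcgr1 stayed between 89.6 and 119 CPM.

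To describe macrophages in GVHD, myeloid-gated cells of GVHD were set against those of BM. Fcgr3 was 1.68 times as high in GVHD (1.63 to 1.72), Fcgr4 1.20 times (1.16 to 1.25) and Fcgr2b 1.20 times (1.17 to 1.23). Fcer1g was lower in GVHD, at 0.896 times the BM level (0.884 to 0.909), but its log2 ratio of −0.16 was −0.0037 under TMM and −0.014 under median-of-ratios scaling. The Fcgr1 ratio was 0.940 (0.892 to 0.990), a direction that turned in 6 of 17 other processings, TMM and median-of-ratios scaling among them. Fcgr3 was the 1 member of 5 past 1.5-fold, in a comparison in which 16.3% of 6261 genes were at least 1.5-fold higher and 17.0% at least 1.5-fold lower. A count of 1 in 5 is a share near that background. The median log2 ratio was 0.26 for the 5 members and 0.02 for all genes, and the ratio of Fcgr3 lay above that of 88.7% of all genes.

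The Fcgr3 ratio rests in part on the handling of barcodes shared by both libraries. With the shared barcodes kept in BM its log2 ratio was 0.58, just under 1.5-fold, and with them dropped from GVHD as well it was 0.56, or 1.47-fold. With them kept in BM, the log2 ratios of Fcgr1 (−0.09), Fcgr4 (0.24), Fcgr2b (0.21) and Fcer1g (−0.15) stayed close to the main values of −0.09, 0.27, 0.26 and −0.16. With them dropped from both libraries, Fcgr4 (−0.03) and Fcgr2b (0.05) were near 0, Fcgr1 was at 0.15 and Fcer1g at −0.27. TMM scaling moved all log2 ratios of this comparison by 0.15.

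Other features of the myeloid-gated cells moved with the comparison. The summed level of the 8 mature macrophage markers was 5250 CPM in GVHD against 8415 CPM in BM, and that of the 5 monocyte markers 762 CPM against 299 CPM. All 8 and all 5 had UMIs in both libraries. Ribosomal protein genes took 14.6% of UMIs in GVHD and 9.82% in BM, and the median cell held 16046 and 11907 UMIs. Their part in the ratios was not tested. The comparison was repeated in cells with a high summed level of the mature markers, which were most of the myeloid-gated cells of both libraries. This subset does not even out the features above. Ribosomal protein genes still took 14.7% of its UMIs in GVHD and 9.92% in BM, and its median depths were 16684 and 12381 UMIs. In cells with many mature markers, 1683 in GVHD and 1563 in BM, Fcgr3 was at 571 CPM in GVHD and 336 CPM in BM, a ratio of 1.70 (1.65 to 1.74). There Fcgr1 was at 102 CPM in GVHD and 100.2 CPM in BM, Fcgr4 at 190 and 154 CPM, Fcgr2b at 515 and 429 CPM, and Fcer1g at 1252 and 1406 CPM.

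Remainder cells, the myeloid-gated cells that met neither the mature nor the monocyte rule, differed more, from fewer cells. They are a leftover class, and whether they are a stage between the others was not tested. In 397 such cells of GVHD and 169 of BM, Fcgr1 was at 56.6 CPM in GVHD and 89.2 CPM in BM (ratio 0.635, 0.511 to 0.794). Fcgr3 was at 442 CPM in GVHD and 175 CPM in BM (ratio 2.52, 2.20 to 2.91). Fcgr4 was at 116 CPM in GVHD and 62.2 CPM in BM, and Fcgr2b at 408 CPM in GVHD and 222 CPM in BM. Fcer1g was at 1125 CPM in GVHD and 799 CPM in BM (ratio 1.41, 1.32 to 1.51), opposite in direction to the whole myeloid gate. Thus 3 of 5 members were at least 1.5-fold higher and 1 lower in these cells, where 23.8% of 6597 genes were higher and 27.3% lower. The median depth there was 14856 UMIs in GVHD and 5081 UMIs in BM, and the part of this gap was not tested. In BM, mature and monocyte-gated cells had median depths of 12381 and 10568 UMIs, and Fcer1g at 1406 and 1509 CPM.

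**Figure D2:**
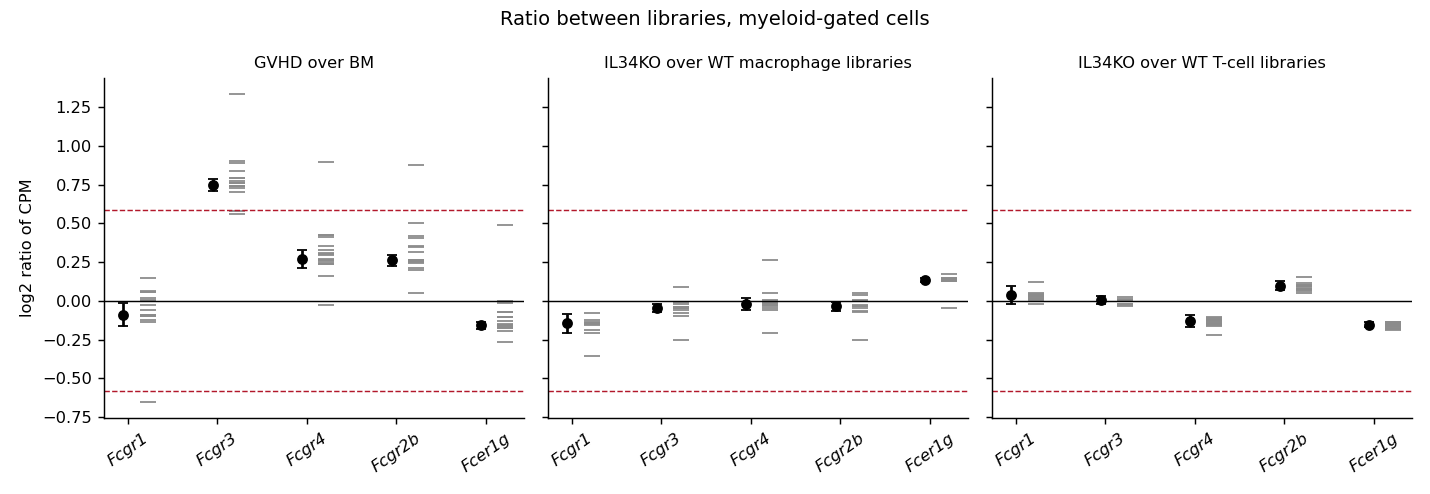
Log2 ratio of CPM between libraries in myeloid-gated cells for the 3 comparisons; black points are the main values with exact 95% counting intervals, grey dashes the alternative processings and red dashed lines mark 1.5-fold. Fcgr3 in GVHD over BM lay at 0.75, with alternatives between 0.56 and 1.34, and in both IL34KO over WT comparisons the main values of all members lay between −0.15 and 0.14.

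To ask whether loss of IL-34 in the recipient bears on these receptors, the library labelled IL34KO was set against WT in both sorts. In the macrophage libraries the ratio was 0.904 (0.867 to 0.943) for Fcgr1, 0.968 (0.952 to 0.986) for Fcgr3, 0.988 (0.962 to 1.01) for Fcgr4, 0.975 (0.957 to 0.995) for Fcgr2b and 1.0998 (1.09 to 1.11) for Fcer1g. None of 5 members was 1.5-fold apart, where 0.428% of 5847 genes were at least 1.5-fold higher and 1.16% lower. The median log2 ratio was −0.04 for the members and −0.0060 for all genes. Neutrophil markers summed to 3230 CPM in the myeloid-gated cells of IL34KO and 1951 CPM in those of WT, all 9 with UMIs in both, and their part in these ratios was not tested.

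In the T-cell libraries the ratio was 1.03 (0.986 to 1.07) for Fcgr1, 1.003 (0.986 to 1.02) for Fcgr3, 0.914 (0.891 to 0.938) for Fcgr4, 1.07 (1.05 to 1.09) for Fcgr2b and 0.900 (0.891 to 0.909) for Fcer1g. Again none of 5 was 1.5-fold apart, where 0.752% of 5720 genes were higher and 0.332% lower by that fold. The median log2 ratio was 0.0039 for the members and 0.010 for all genes. The intervals of all 10 ratios lay between 0.867 and 1.11, short of 1.5-fold, but they do not cover differences between mice. Fcer1g went opposite ways in the 2 pairs of libraries, higher in IL34KO among macrophage libraries (lower there when all filtered cells were used) and lower in IL34KO among T-cell libraries.

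The relation of activating to inhibitory receptors was read as the UMIs of Fcgr1, Fcgr3 and Fcgr4 together per UMI of Fcgr2b. Since these are tags and not receptors on the surface, the ratio is of use between libraries and not as a number of molecules. It was 1.65 (1.62 to 1.68) in GVHD and 1.39 (1.35 to 1.42) in BM, 1.19 times as high in GVHD (1.15 to 1.23). In the macrophage libraries it was 1.98 (1.95 to 2.02) in IL34KO and 2.00 (1.97 to 2.03) in WT, a ratio of 0.991 (0.967 to 1.01). In the T-cell libraries it was 2.06 (2.03 to 2.10) in IL34KO and 2.26 (2.22 to 2.29) in WT, a ratio of 0.915 (0.894 to 0.937). BM had the lowest balance of the 6 libraries and the T-cell library of WT the highest. The GVHD over BM value was 1.02 (0.867 to 1.21) in remainder cells, and 1.22 (1.18 to 1.26) in mature cells. It was 1.15 with shared barcodes kept in BM and 1.24 with them dropped from both libraries. The UMIs of the activating receptors per 100 UMIs of Fcer1g, the chain they need, were 66.7 in GVHD and 41.8 in BM, 39.5 in IL34KO and 44.9 in WT among the macrophage libraries, and 57.0 in IL34KO and 52.4 in WT among the T-cell libraries. GVHD thus had the most receptor UMIs per chain UMI and the other 5 libraries lay between 39.5 and 57.0.

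Single cells were compared after each was thinned to 2000 UMIs, which left out 68 cells of GVHD, 94 of BM, 94 of the macrophage library labelled IL34KO, 110 of that of WT, 445 of the T-cell library labelled IL34KO and 184 of that of WT. An Fcgr1 UMI was found in 17.5% (15.9 to 19.2) of GVHD cells and 16.6% (14.9 to 18.5) of BM cells. Unthinned, these shares were 66.6% and 54.0%. In the other libraries the thinned share was 16.0% in IL34KO and 16.7% in WT for the macrophage libraries, and 20.4% in IL34KO and 20.03% in WT for the T-cell libraries. Even in cells sorted for CD64 protein the transcript was thus caught in a minority at this depth. T-gated cells gave 0% to 0.966% at the same depth, and their median depth was 2995 to 5793 UMIs before thinning, against 6721 to 16046 UMIs for myeloid-gated cells.

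An Fcgr3 UMI was found in 61.0% (58.9 to 63.1) of GVHD cells and 40.6% (38.2 to 43.0) of BM cells, unthinned 93.9% and 79.1%. Fcgr4 was found in 27.9% (26.0 to 29.9) and 21.7% (19.7 to 23.7), and Fcgr2b in 60.1% (58.0 to 62.3) and 45.1% (42.7 to 47.6) of GVHD and BM cells. T-gated cells gave at most 2.61% for Fcgr3, 2.04% for Fcgr4 and 4.08% for Fcgr2b. For the macrophage libraries of the IL-34 experiment the shares were 61.3% in IL34KO and 60.7% in WT for Fcgr3, 33.2% and 33.3% for Fcgr4 and 53.5% and 53.4% for Fcgr2b. An activating receptor and Fcgr2b were both found in 45.6% of GVHD cells and 29.7% of BM cells, and none of the 4 receptors in 11.2% of GVHD cells and 25.8% of BM cells. Cells with Fcgr2b alone were 14.5% of GVHD and 15.4% of BM, and cells with activating receptors alone 28.7% of GVHD and 29.1% of BM. Between IL34KO and WT the share with both was 42.2% and 42.0% in the macrophage libraries and 50.7% and 49.5% in the T-cell libraries. GVHD and BM thus lay apart mainly in the shares of cells with both kinds of receptor and with none.

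Within the myeloid gate the members differed by class of cell. In remainder cells Fcgr1 was lower than in mature cells of the same library in 5 of 6 libraries. The ratio was 0.557 (0.499 to 0.621) in GVHD. It was 0.626 (0.579 to 0.676) and 0.675 (0.629 to 0.724) in the macrophage libraries of IL34KO and WT. In the T-cell libraries of IL34KO and WT it was 0.470 (0.417 to 0.528) and 0.439 (0.399 to 0.482). In BM the ratio was 0.890 (0.727 to 1.08), whose interval includes 1. Fcgr4 was lower in such cells in all 6 libraries, at 0.609 in GVHD, 0.405 in BM, 0.736 and 0.591 in the macrophage libraries of IL34KO and WT, and 0.476 and 0.508 in the T-cell libraries of IL34KO and WT. Fcgr3 had ratios of 0.521 in BM and 0.737 to 0.868 in the other 5 libraries, Fcgr2b 0.517 in BM and 0.791 to 0.920 elsewhere, and Fcer1g 0.569 in BM and 0.898 to 1.03 elsewhere. In those other 5 libraries Fcgr1 and Fcgr4 were thus further below the mature level than these 3 genes, whereas in BM Fcgr1 was the nearest to it. The split used mature markers such as C1qa, which were thus higher in mature cells by choice.

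In monocyte-gated cells Fcgr1 was at 90.2 CPM in IL34KO and 108 CPM in WT for the macrophage libraries, 0.875 (0.790 to 0.967) and 0.993 (0.899 to 1.095) of the mature level. It was at 75.9 CPM in IL34KO and 70.1 CPM in WT for the T-cell libraries, 0.581 and 0.546 of the mature level. The 45 monocyte-gated cells of GVHD held 17 UMIs of Fcgr1 (29.7 CPM) and the 28 of BM held 37 UMIs (123 CPM). Remainder cells had 64.5 and 73.4 CPM in the macrophage libraries of IL34KO and WT, below both other classes. They had 61.4 and 56.4 CPM in the T-cell libraries of IL34KO and WT and 89.2 CPM in BM, also below both. In GVHD, at 56.6 CPM, they lay above the monocyte-gated cells. The order of the 3 classes was thus not the same in every library, and the monocyte values of GVHD and BM rest on few cells.

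Neutrophil-gated cells of the macrophage libraries had a different set of receptors. They numbered 492 in the macrophage library labelled IL34KO and 205 in that of WT, and under 50 elsewhere. Fcgr4 was at 339 CPM (307 to 374) in neutrophil-gated cells of IL34KO and 348 CPM (300.5 to 401) in those of WT, 1.44 (1.30 to 1.60) and 1.46 (1.26 to 1.69) times the level of myeloid-gated cells. In the T-cell libraries, the 22 neutrophil-gated cells of IL34KO held 2 Fcgr4 UMIs, 0.223 (0.0270 to 0.805) of the myeloid level, and the 46 of WT held 22 UMIs, 1.14 (0.717 to 1.73) of it. Fcgr3 was at 346 and 375 CPM in neutrophil-gated cells of the macrophage libraries of IL34KO and WT, 0.665 and 0.699 of the myeloid level. Fcgr2b was at 103 CPM (85.1 to 123) in IL34KO and 65.6 CPM (46.0 to 90.8) in WT, 0.241 (0.200 to 0.288) and 0.150 (0.105 to 0.208) of the myeloid level. Fcgr1 was at 14.4 and 16.4 CPM, 0.161 (0.0936 to 0.258) and 0.166 (0.0757 to 0.315) of the myeloid level, from 17 and 9 UMIs. Fcer1g was at 2156 CPM in IL34KO and 2202 CPM in WT, close to its myeloid level. The macrophage gene C1qa, which the gate limits, was at 34.8 CPM in neutrophil-gated cells of IL34KO and 54.7 CPM in those of WT, against 1119 and 1306 CPM in myeloid-gated cells, and its part in the Fcgr1 counts was not tested.

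The activating receptors together had 6.82 UMIs per Fcgr2b UMI (5.63 to 8.32) in neutrophil-gated cells of IL34KO and 11.3 (8.01 to 16.3) in those of WT. The higher Fcgr2b of IL34KO, 1.56-fold over WT (1.07 to 2.34), rests on 121 and 36 UMIs. Of the 4 members above the floor of 20 CPM there, with Fcgr1 under it, Fcgr2b was the 1 past 1.5-fold, where 9.86% of 4657 genes were higher and 15.0% lower by that fold. At 2000 UMIs per cell an Fcgr4 UMI was found in 47.0% (40.5 to 53.6) of neutrophil-gated cells of IL34KO and 48.0% (39.1 to 57.1) of those of WT, against 33.2% and 33.3% of myeloid-gated cells. Fcgr2b was found in 13.2% of them in IL34KO and 10.2% in WT. Fcgr1 was found in 1.28% (0.265 to 3.70) in IL34KO and 4.72% (1.75 to 10.0) in WT, and unthinned in 3.25% and 3.902%. T-gated cells of the same libraries gave 0.966% (0.117 to 3.45) and 0% (0 to 3.69), so that neither thinned share stood clear of them. Thinning left out 258 and 78 of the neutrophil-gated cells, whose median depths were 1932.5 UMIs in IL34KO and 2250 UMIs in WT.

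Dendritic-gated cells were few, 44 in the macrophage library labelled IL34KO and 51 in that of WT, and 43 in the T-cell library labelled IL34KO and 70 in that of WT. Fcgr1 was at 20.2 and 31.9 CPM in those of the macrophage libraries and 20.6 and 12.5 CPM in those of the T-cell libraries, from 7 to 27 UMIs each. These were 0.225 and 0.322 of the myeloid level for IL34KO and WT among the macrophage libraries and 0.173 and 0.107 among the T-cell libraries. Fcgr4 was also low, at 60.5 and 62.6 CPM in IL34KO and WT for the macrophage libraries, 0.258 and 0.263 of the myeloid level, and at 29.8 and 35.6 CPM for the T-cell libraries. Fcgr2b was at 341 and 340.0 CPM in IL34KO and WT for the macrophage libraries, 0.80 and 0.78 of the myeloid level, but at 206 and 128 CPM for the T-cell libraries, 0.413 and 0.275 of it. Flt3, the growth factor receptor of dendritic cells, was at 7.33 and 3.54 CPM in these cells of the macrophage libraries and at 91.7 and 87.2 CPM in those of the T-cell libraries. The gate thus held cells with little Flt3 in the CD64-sorted libraries.

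**Figure D3:**
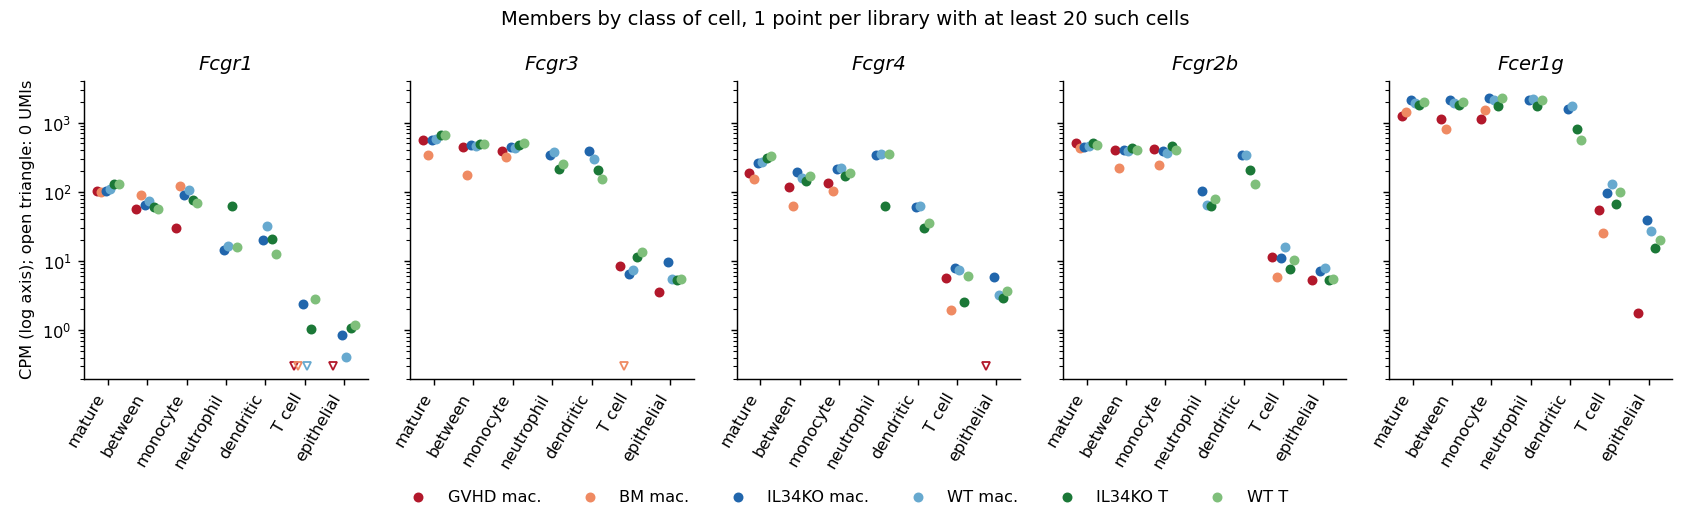
Level of each member by class of cell in CPM (log axis), 1 point per library with at least 20 such cells; open triangles at the foot mark 0 UMIs. Fcgr1 was between 100.2 and 130.5 CPM in mature cells and at 14.4 and 16.4 CPM in neutrophil-gated cells of the macrophage libraries, while Fcgr4 stood at 339 and 348 CPM there.

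**Figure D4:**
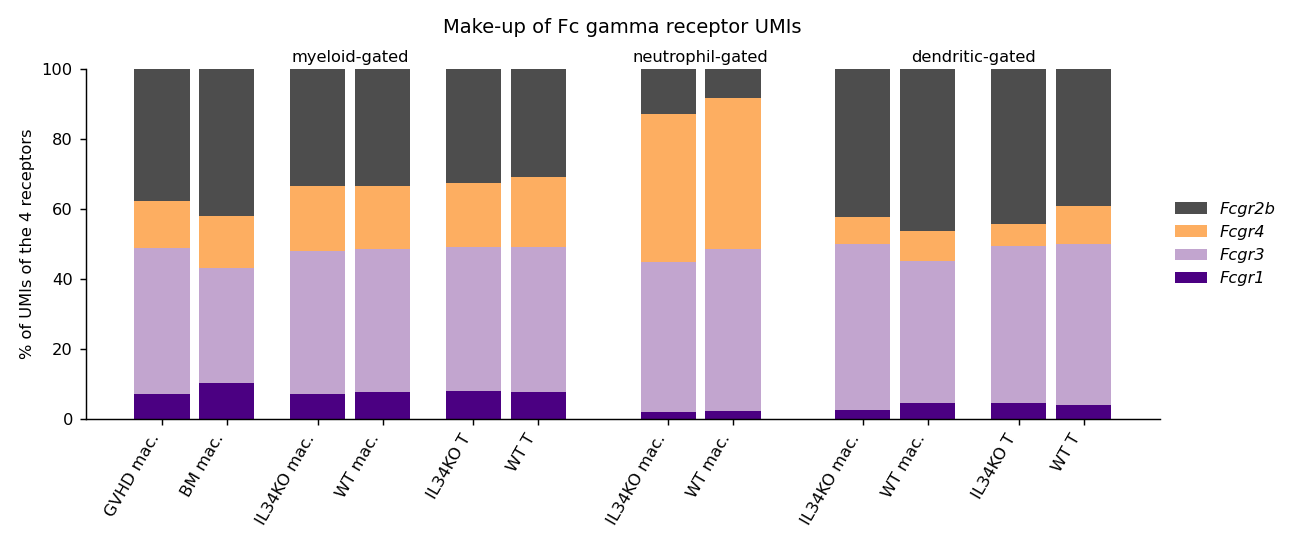
Share of each gene in the UMIs of the 4 receptor genes, in percent, for myeloid-, neutrophil- and dendritic-gated cells, 1 bar per library. Fcgr3 took 41.6% in GVHD and 33.1% in BM, and Fcgr4 took 42.3% and 43.2% in neutrophil-gated cells of IL34KO and WT.

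Set against each other as shares of the UMIs of the 4 receptors, with no correction for gene length, Fcgr3 made up 41.6% in GVHD and 33.1% in BM, Fcgr2b 37.7% and 41.9%, Fcgr4 13.5% and 14.9%, and Fcgr1 7.12% and 10.1%. The same shares in the other 4 libraries lay within 40.9% to 41.6% for Fcgr3, 30.7% to 33.5% for Fcgr2b, 18.1% to 20.1% for Fcgr4 and 7.05% to 7.78% for Fcgr1. GVHD was within or near this range for Fcgr3 and Fcgr1, and both BM and GVHD were outside it for Fcgr4 and Fcgr2b.

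Within libraries, Fcgr1 was also set against Nos2, which encodes inducible nitric oxide synthase of inflammatory macrophages. In cells thinned to 2000 UMIs, Fcgr1 was lower in cells with a Nos2 UMI than in cells without one in 4 of the 5 libraries with enough such cells. It was at 71.7 against 99.6 CPM in the macrophage library labelled IL34KO (ratio 0.720, 0.600 to 0.862) and at 84.0 against 102 CPM in that of WT (0.822, 0.674 to 0.996). It was at 82.8 against 130 CPM in the T-cell library labelled IL34KO (0.638, 0.525 to 0.771) and at 85.1 against 126 CPM in that of WT (0.677, 0.589 to 0.776). In GVHD it was at 80.4 against 101 CPM, and the interval of the ratio, 0.795 (0.517 to 1.17), includes 1. Within mature cells the ratio was 0.844 in GVHD, 0.835 and 0.803 in the macrophage libraries of IL34KO and WT, all 3 with intervals that include 1, and 0.685 (0.553 to 0.843) and 0.742 (0.638 to 0.860) in the T-cell libraries of IL34KO and WT. Cells of 1 library are not replicates, and a Nos2 UMI at this depth marks part of the cells that express it.

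Fcer1g was higher in cells with Nos2, with ratios of 1.17 (1.13 to 1.21) and 1.15 (1.10 to 1.19) in the macrophage libraries of IL34KO and WT and 1.07 in both T-cell libraries, and its interval includes 1 in GVHD. Fcgr4 was higher with Nos2 in mature cells of GVHD (1.36, 1.04 to 1.77) and of the macrophage library labelled IL34KO (1.23, 1.06 to 1.42), and lower in those of the T-cell library of WT (0.912, 0.838 to 0.992). Over all myeloid-gated cells its interval includes 1 in GVHD (1.23, 0.952 to 1.58) and in the macrophage libraries of IL34KO (1.10, 0.991 to 1.22) and WT (1.07, 0.950 to 1.20), and it was lower with Nos2 in the T-cell libraries of IL34KO (0.880, 0.787 to 0.981) and WT (0.838, 0.776 to 0.905). For cells with a UMI of Arg1, arginase, Fcgr3 was higher, at 616 against 502 CPM in GVHD (1.23, 1.11 to 1.36), 639 against 495 CPM in IL34KO (1.29, 1.18 to 1.41) and 606 against 504 CPM in WT (1.20, 1.09 to 1.33) among the macrophage libraries. In the T-cell libraries that ratio was 1.07 (0.997 to 1.16) in IL34KO and 1.09 (1.03 to 1.15) in WT. Within mature cells the Fcgr3 ratio was 1.11 (0.987 to 1.24) in GVHD, whose interval includes 1, 1.15 (1.01 to 1.31) and 1.20 (1.06 to 1.35) in the macrophage libraries of IL34KO and WT, and 1.11 (1.03 to 1.20) and 1.09 (1.03 to 1.15) in the T-cell libraries of IL34KO and WT. For cells with a UMI of Gbp2, an interferon-induced GTPase, Fcgr4 was 1.69-fold (1.29 to 2.18) higher in BM, 1.31-fold (1.17 to 1.47) in IL34KO and 1.19-fold (1.08 to 1.33) in WT among the macrophage libraries. The Fcgr4 intervals for GVHD and both T-cell libraries include 1. Fcgr1 was higher in cells with Gbp2 in BM (1.61, 1.15 to 2.20) and in the WT macrophage library (1.41, 1.20 to 1.67) and lower in the T-cell library labelled IL34KO (0.803, 0.705 to 0.915), and its intervals include 1 in the other 3.

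**Figure D5:**
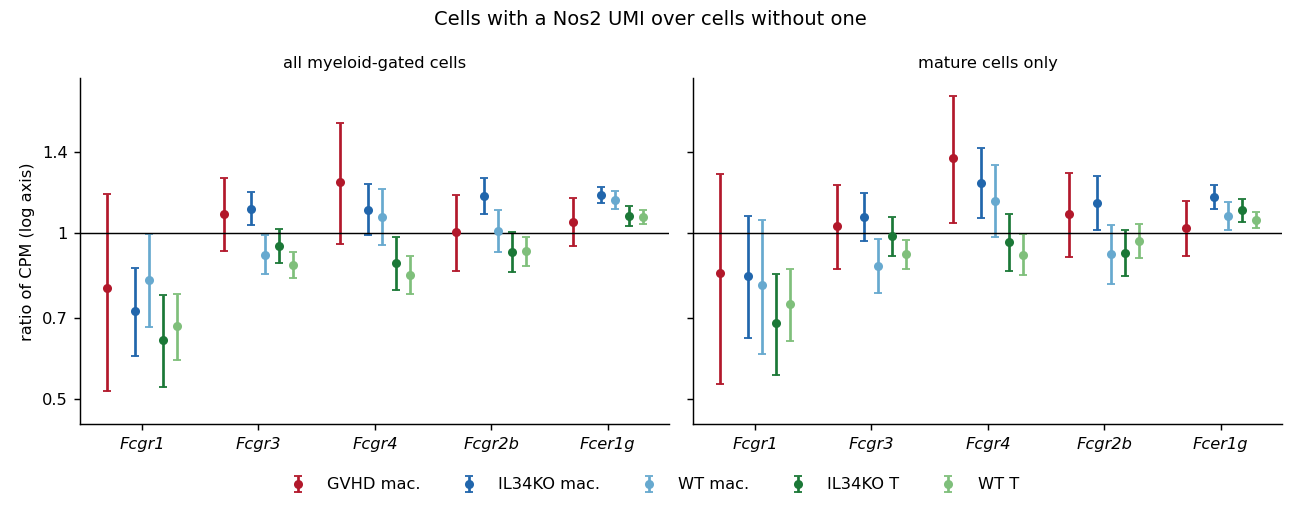
Ratio of CPM in cells with a Nos2 UMI over cells without one (log axis) for each member, with exact 95% counting intervals, in all myeloid-gated cells and in mature cells, each thinned to 2000 UMIs; BM had too few cells with Nos2. Fcgr1 lay between 0.638 and 0.822 in all myeloid-gated cells and between 0.685 and 0.844 in mature cells.

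Other genes of the pathway were read from lists ordered by role. The counts of genes at least 1.5-fold apart between GVHD and BM stand against 16.3% higher and 17.0% lower of all genes, and small counts near those shares are no result about a list. Of the 6 ligand genes, the heavy chains of immunoglobulins, Ighm alone was measured in GVHD and BM, at 18.4 CPM in GVHD and 89.0 CPM in BM, and none was measured in the other comparisons. The 5 B-cell markers summed to 2.44 CPM in myeloid-gated cells of GVHD and 11.6 CPM in those of BM, with Pax5 at 0 in both, and the 4 plasma cell markers to 0.868 and 8.71 CPM. Their part in the Ighm values was not tested. Of 13 other Fc receptors, 2 were measured and both were lower in GVHD: Fcgrt, the neonatal Fc receptor that recycles IgG, at 68.3 CPM in GVHD and 125 CPM in BM, and Fcrls, a marker of resident macrophages in mice, at 2.32 and 123 CPM. Of 20 kinases and activating adaptors 18 were measured, with 1 at least 1.5-fold higher and 4 lower in GVHD and a median log2 ratio of −0.19. The adaptor Blnk was at 52.1 CPM in GVHD and 367 CPM in BM, and Gab2 at 321 CPM in GVHD and 1072 CPM in BM. The exchange factors Vav1 (51.9 and 96.0 CPM) and Vav3 (276 and 487 CPM) were lower in GVHD as well. Syk itself was at 602 CPM in GVHD and 664 CPM in BM.

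Of 15 genes of inhibitory signalling, 2 were higher and 4 lower in GVHD, with a median log2 ratio of 0.01. Inpp5d, the phosphatase that Fcgr2b recruits, was at 155 CPM in GVHD and 339 CPM in BM, a ratio of 0.459 (0.444 to 0.475), while Fcgr2b itself was 1.20 times as high in GVHD. In the other 4 libraries Inpp5d was between 161 and 171 CPM, so that BM stood apart here too. The ubiquitin ligase Cblb was at 187 CPM in GVHD and 62.8 CPM in BM, and the adaptor Dok2 at 134 and 46.6 CPM, whereas Cbl was at 139 and 224 CPM. Of 18 genes of particle uptake, 4 were higher and 1 lower, with a median of 0.29. Itgb2, the beta chain of CD11b integrin, was at 256 CPM in GVHD and 124 CPM in BM. The oxidase subunits Cyba (1115 and 643 CPM) and Ncf1 (232 and 141 CPM) were higher in GVHD, and Elmo1, which activates Rac in engulfment, was lower (197 and 621 CPM).

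Of 12 known regulators of these receptors, 2 were higher and 2 lower in GVHD, with a median of −0.23. Irf1, an interferon-induced transcription factor, was at 237 CPM in GVHD and 133 CPM in BM. Fcgr1 differed little there, but both libraries were sorted on its protein, and its direction turned under some processings. Tgfbr2 (65.0 and 229 CPM) and Cebpa (58.8 and 100.5 CPM) were lower in GVHD. Between the macrophage libraries of IL34KO and WT, the genes past 1.5-fold in these lists were Fcgrt, at 37.4 CPM in IL34KO and 60.1 CPM in WT, and Blnk, at 19.4 and 32.4 CPM. Between the T-cell libraries they were the transcription factors Cebpa, at 70.5 CPM in IL34KO and 34.2 CPM in WT, and Cebpb, at 1108 and 713 CPM. Both went the other way in the macrophage libraries, with ratios of IL34KO over WT of 0.825 (0.758 to 0.897) and 0.855 (0.842 to 0.869). Fcgrt had a ratio of 1.06 (1.02 to 1.11) in the T-cell libraries. The medians of the lists with at least 2 measured genes lay between −0.06 and 0.11 in these 2 comparisons.

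The likeness of other genes to each member was measured as Pearson's r of log2(CPM + 5) over 10 sums of cells, the 6 myeloid-gated sums and the neutrophil- and dendritic-gated sums with at least 50 cells, some of which share a library. Fcgr1 was most like C1qb (0.986), Tspan32 (0.983) and C1qa (0.983), of which C1qa and C1qb helped to define the gates. Fcgr2b was like Ctsc (0.989) and Lrp1 (0.989), and Fcgr1 and Fcgr2b themselves were at 0.921. Fcgr4 was most like Pde7b (0.947), Hbegf (0.934) and Ier3 (0.932), and stood at 0.022 with Fcgr2b and 0.819 with Fcer1g. Fcgr3 was most like Syngr1 (0.959), Arl11 (0.949) and Fzd7 (0.938), and Fcer1g was like Pstpip2 (0.954) and Atp6v1e1 (0.947). Of the 10 sums 4 were neutrophil- or dendritic-gated. Over the 6 myeloid-gated sums alone the value of Fcgr1 with C1qb was 0.828, that of Fcgr4 with Pde7b 0.239, that of Fcgr2b with Lrp1 −0.101 and that of Fcgr1 with Fcgr2b 0.474. The other named pairs with a gene outside the family were between 0.634 and 0.931 there, so the pairs with Pde7b and Lrp1 were alike only with the neutrophil- and dendritic-gated sums included.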

How the data were processed

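Per the labels' protocols, live colon cells went into 10x libraries with 5′ and 3′ kits. The authors deposited raw UMI counts per gene and barcode, made with Cell Ranger 7.0.1 and mm10, per the submitters' processing notes. Here cells with at least 500 genes and no more than 10% of UMIs from mitochondrial genes were used, and Scrublet doublets (scanpy 1.11.5) were removed. In the macrophage libraries, where Scrublet's threshold marked 0 to 3 cells, the expected number with the highest scores (0.8% per 1000 barcodes) was removed. Gates asked for at least 5 of 15 myeloid, 4 of 9 neutrophil or 3 of 12 dendritic markers and few of other classes. Their cut-offs were set from marker levels after the data were seen. Counts were summed per gate and library, divided by the sum's total and compared as ratios with exact 95% intervals (scipy 1.17.1). These intervals were checked only on simulated sums with counting error, which cannot show how they hold under variation between cells or mice. A gene counted as measured at 20 CPM in 1 of 2 libraries and as apart at 1.5-fold. TMM (edgeR 4.0.16) and median-of-ratios factors (DESeq2 1.42.0) served as other scalings. Named genes were the members, the 3 most like each by correlation and the up to 4 furthest apart of each list. Syk, C1qa, Flt3, Nos2, Arg1, Gbp2 and Il34 were added as context. Some named genes are not reported here. The members and lists were chosen with earlier results of these data known.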

Additional observations from a re-analysis of the deposited data

Results flagged for a closer look

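Fcgr2b and Fcer1g went opposite ways between IL34KO and WT in the 2 sorts, and whether the sorts differ was not tested. The log2 ratio of Fcgr2b was −0.0359 in the macrophage libraries and 0.0978 in the T-cell libraries, and that of Fcer1g was 0.137 in the macrophage libraries and −0.153 in the T-cell libraries. All 4 values are under 1.5-fold, and the sign of both macrophage values turned under some alternatives (3 of 15 for Fcgr2b and 1 of 15 for Fcer1g).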

How the results depend on the processing

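No paired analysis was possible because each group is 1 library. No result of a comparison turned round in a called direction. Members at least 1.5-fold apart in GVHD over BM numbered 1. The count was 0 with shared barcodes kept in BM and 0 with them also dropped from GVHD. It was 4 in remainder cells, a setting chosen after seeing the data. In these last cells the log2 ratios were −0.66 for Fcgr1, 1.34 for Fcgr3, 0.90 for Fcgr4, 0.88 for Fcgr2b and 0.49 for Fcer1g, against −0.16 for Fcer1g in all myeloid-gated cells. The first 2 settings changed which cells were compared, and the cause beyond that was not tested. Over 17 alternatives Fcgr3 in GVHD over BM ranged from 0.56 to 1.34 and stayed past 1.5-fold in 15. Both IL34KO over WT comparisons had 0 members apart in all 15 alternatives each. TMM scaling moved the log2 ratios of GVHD over BM by 0.15 and median-of-ratios scaling by 0.14, and those of the other comparisons by at most 0.02. With 1 library per group, differences between mice, strains, kits or preparations cannot be told apart from the groups, and neutrophil- and dendritic-gated values rest on few UMIs.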
